A study of Mus musculus with 18 samples.

Results

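The RNA analysed here lay opposite a gene. The antisense peaks were those MDA5-protected peaks that overlapped no GENCODE M21 gene on their own strand but overlapped at least 1 base of a gene body on the opposite strand, which is called the host gene below. They numbered 1662 of the 11501 peaks in the 6 MDA5-protected lists, with 6119 sense intronic peaks, 1646 sense exonic peaks and 2074 peaks outside genes making up the rest. The rule used positions and strand only and no measured level.

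MDA5, encoded by Ifih1, is a cytoplasmic sensor that forms filaments along double-stranded RNA and signals through its CARD domains to the adaptor MAVS. ADAR1, encoded by Adar, edits adenosines of double-stranded RNA into inosines and so loosens its pairing. RNA transcribed from the strand opposite a gene is one textbook source of double strands, as is transcription of both mitochondrial DNA strands and divergent transcription from CpG-rich promoters. A peak opposite a gene shows RNA of that polarity, and it does not by itself show that a partner strand was present.

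The livers came from mice of 8 to 9 days. Editing-deficient mice were Adar-/-; Mavs-/-, and their controls, which the submitters titled wild-type, were Mavs-/-, so every animal lacked MAVS. Loss of Adar alone is lethal before birth, and loss of MAVS rescues it. Each genotype gave biological triplicates of 3 fractions, making 18 libraries: RNA digested with RNase A/T1 after incubation with mouse MDA5 that lacked its CARD domains (MDA5-protected), RNA digested without that protein (RNase only), and undigested RNA (Input). All 8 hepatocyte markers had Input peaks in every library, between 4 and 7 of 7 erythroid and 5 or 6 of 6 Kupffer cell markers did, and none of 4 cholangiocyte markers did. Between 0 and 3 of 4 endothelial and 2 or 3 of 4 stellate cell markers had them by library. A peak's area under its significance curve grows with depth, so it is given as a percentile among all peaks of its own library, where 100 is the strongest. The lists hold no read counts, and the depth behind a peak is not known from them.

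GC-rich antisense loci are shown first, because 21 readable loci found in all 6 MDA5-protected libraries all had at least 70% G and C. A locus was readable if it had at most 300 bases and lay wholly within a held transcript or promoter sequence. Loci on chromosome 18 were left out of this reading. A locus is a set of overlapping peaks of 1 strand merged over the 6 libraries. Its area percentile in a library is that of its strongest peak there, antisense or not. The sequences are those of the peak strand, written 5′ to 3′ on GRCm38 with CG dinucleotides in capitals, and come from GENCODE M21 transcripts. Rassf1, Ifih1 and Gm12896 are named by the rule given under the methods, and the other hosts were chosen after their values were seen.

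Opposite Pdcd7, a component of the minor spliceosome, the locus in a coding exon at chr9:65346391-65346563 on the minus strand held peaks in 6 MDA5-protected libraries on this strand and in 6 on the host strand, with RNase-only peaks in 6 libraries and no Input peak. The locus opposite Samd1, which binds unmethylated CpG islands, lay at chr8:83998143-83998371 on the minus strand and was found in 5 libraries, with RNase-only peaks in 4 libraries and Input peaks in 3. Opposite Rassf1, a Ras-association tumour suppressor, a locus at chr9:107554223-107554309 on the minus strand was found in 6 libraries and had no RNase-only or Input peak. The same held for a coding exon of the T-box factor Tbx2, at chr11:85838064-85838153 on the minus strand.

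Pdcd7: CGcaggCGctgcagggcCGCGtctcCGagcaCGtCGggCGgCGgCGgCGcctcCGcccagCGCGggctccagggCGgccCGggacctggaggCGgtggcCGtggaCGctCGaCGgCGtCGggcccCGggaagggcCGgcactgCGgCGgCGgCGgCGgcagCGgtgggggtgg

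Samd1: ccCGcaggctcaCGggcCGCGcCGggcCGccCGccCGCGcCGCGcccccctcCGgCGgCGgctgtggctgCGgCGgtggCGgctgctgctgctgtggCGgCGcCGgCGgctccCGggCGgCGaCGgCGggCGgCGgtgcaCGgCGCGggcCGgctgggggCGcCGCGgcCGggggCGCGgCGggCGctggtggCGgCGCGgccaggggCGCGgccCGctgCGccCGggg

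Rassf1: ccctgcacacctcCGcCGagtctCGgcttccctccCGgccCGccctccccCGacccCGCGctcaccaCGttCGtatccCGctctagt

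Tbx2: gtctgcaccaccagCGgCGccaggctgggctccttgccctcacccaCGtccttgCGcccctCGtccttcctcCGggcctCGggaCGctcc

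These 4 stretches held 31, 48, 11 and 8 CG dinucleotides in that order, with G and C at 83.8%, 90.4%, 72.4% and 73.3% of bases. Loci of other composition stand beside them. The locus opposite the lincRNA AI463229, at chr13:37657724-37657849 on the plus strand, held no base other than C and T. It was found in 3 MDA5-protected libraries, and 6 RNase-only libraries had a peak there. The exon part of the locus opposite exon 5 of Ifih1 lay at chr2:62617261-62617484 on the plus strand and had 47.3% G and C. The exon part of the locus opposite the processed pseudogene Gm12896 lay at chr4:122122998-122123072 on the minus strand.

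AI463229: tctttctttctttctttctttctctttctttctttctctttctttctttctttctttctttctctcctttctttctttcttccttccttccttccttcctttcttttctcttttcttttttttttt

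Ifih1: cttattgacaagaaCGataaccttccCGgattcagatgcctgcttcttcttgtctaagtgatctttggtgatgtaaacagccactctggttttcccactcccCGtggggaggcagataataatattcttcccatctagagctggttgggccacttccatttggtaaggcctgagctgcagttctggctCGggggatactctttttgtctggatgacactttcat

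Gm12896: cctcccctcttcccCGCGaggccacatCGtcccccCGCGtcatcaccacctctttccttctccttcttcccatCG

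A sequence was held for only part of the peaks, since no genome was used here. Between 22.6% and 36.4% of a library's nuclear antisense peaks lay wholly within a GENCODE transcript or a RefSeq promoter window, so a check of base composition over all antisense peaks was void. Of the peaks that could be read, the median G and C content per library was between 81.4% and 85.2%, and the share at 70% or more was between 83.7% and 96.8%. Among readable sense exonic peaks that share was between 30.3% and 74.0%, and among 32851 RefSeq promoter windows it was 9.58%. Each window was read whole, while a readable peak could be a short stretch inside one, so 9.58% is not a matched background. Readable sense intronic peaks, between 4 and 15 per library, were GC-rich too, with 83.3% to 100% of them at 70% or more and medians between 84.1% and 87.3%. Of 152 antisense loci of at most 300 bases with a sequence, chromosome 18 left out, 141 reached 70%. Windows near starts and in exons were the only ones that could be read, so these shares describe that subset.

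The number of antisense peaks differed among libraries but was not shown to differ between genotypes. In the Mavs-/- MDA5-protected lists they numbered 229 of 1829, 216 of 1220 and 261 of 1180 peaks, which is 12.5% (95% exact Clopper-Pearson interval 11.0 to 14.1), 17.7% (15.6 to 19.96) and 22.1% (19.8 to 24.6). In the editing-deficient lists they numbered 233 of 1636, 343 of 2768 and 380 of 2868, or 14.2% (12.6 to 16.0), 12.4% (11.2 to 13.7) and 13.2% (12.0 to 14.5). The shares of the genotypes overlapped. The mean number was 235 ± 23.2 (SD, n = 3) in Mavs-/- and 319 ± 76.5 in editing-deficient liver, a difference that the two-sided exact permutation test of 3 libraries against 3 gave p = 0.2 (adjusted over 7 genotype comparisons, 0.35). The mean share was 17.4% ± 4.80 against 13.3% ± 0.926 (exact permutation p = 0.3, adjusted 0.42). The difference of -4.15 points was -6.62 without Mavs-/- replicate 1 and -1.82 without Mavs-/- replicate 3, and that in number, 83.3, was 126 without editing-deficient replicate 1 and 52.7 without editing-deficient replicate 3. The exact permutation test of this design cannot go below p = 0.1, so no genotype comparison could pass 0.05, and p-values measure the spread among these libraries only. When every list was cut to the same number of its strongest peaks, the difference in number turned to 54.7 fewer antisense peaks in editing-deficient liver.

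**Figure D1:**
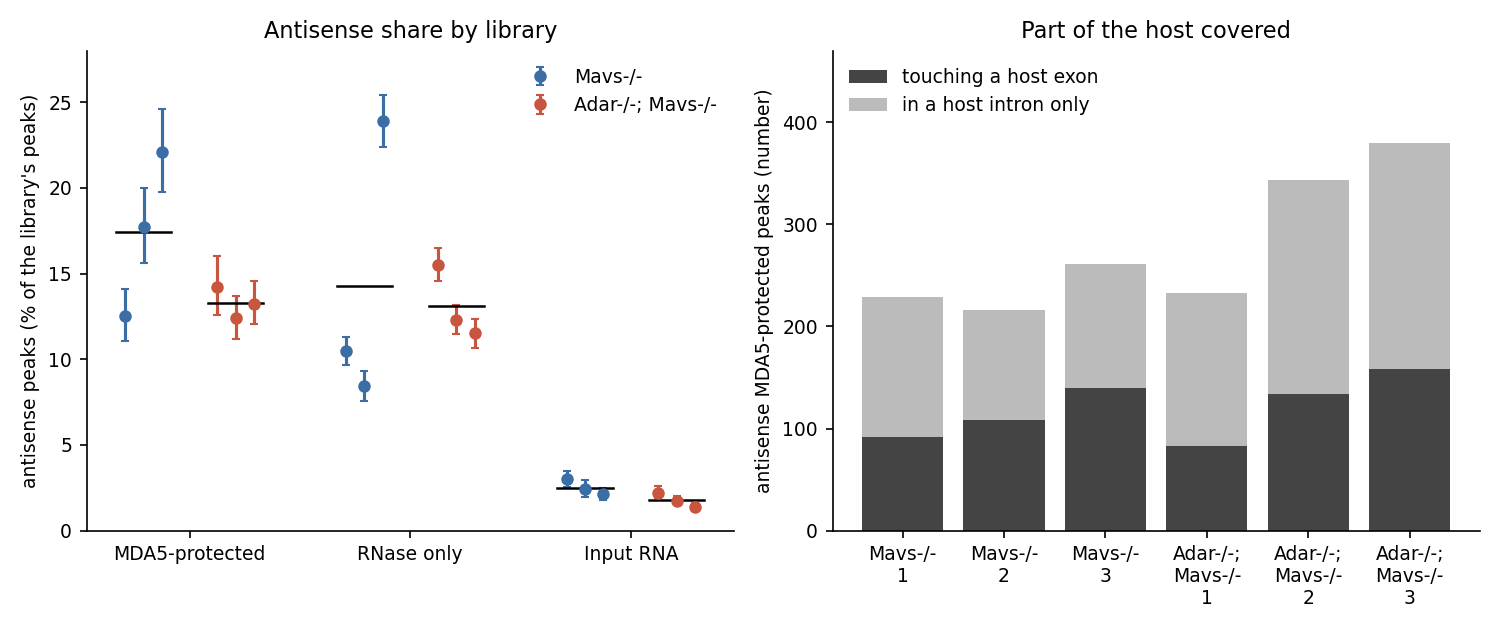
Left, antisense share of all peaks, in percent, for each of the 18 libraries by fraction and genotype, with 95% Clopper-Pearson intervals as error bars and group means as horizontal lines; right, number of antisense peaks per MDA5-protected library on host exons and in host introns only. The 6 Input libraries lie between 1.36% and 2.99%, below every digested library, and 1 Mavs-/- RNase-only library stands apart at 23.9%. Only the digested lists were called with Input as control.

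Lists of digested RNA held a larger share of antisense peaks than Input lists did, with or without MDA5. The paper describes Input as the control for calling the digested lists only. The fractions were therefore called unlike each other, and the part of this in the gap was not tested. The share was 15.4% ± 3.84 over the 6 MDA5-protected libraries, 13.7% ± 5.51 over the 6 RNase-only libraries and 2.14% ± 0.560 over the 6 Input libraries. The MDA5-protected and Input shares did not overlap and differed by 13.2 percentage points (two-sided exact permutation test, 6 libraries against 6, p = 0.0021645, the smallest this design can give, adjusted over 2 fraction comparisons 0.004329). The MDA5-protected and RNase-only shares overlapped and differed by 1.70 points (exact permutation p = 0.545), which became 0.346 without Mavs-/- MDA5-protected replicate 3 and 3.73 without Mavs-/- RNase-only replicate 3. The RNase-only shares were 10.5%, 8.42% and 23.9% in Mavs-/- and 15.5%, 12.3% and 11.5% in editing-deficient liver (exact permutation p = 1 between genotypes). Without Mavs-/- RNase-only replicate 3 that genotype difference reversed to 3.66 points higher in editing-deficient liver. Input shares were 2.51% ± 0.445 in Mavs-/- and 1.78% ± 0.428 in editing-deficient liver (exact permutation p = 0.2). As a check of the strand, between 90.3% and 93.8% of a library's Input peaks lay on an exon of a gene on their own strand.

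Hosts of antisense peaks were mostly protein-coding genes hit once. The 1662 peaks merged into 625 of the 4766 MDA5-protected loci, opposite 552 genes, of which 502 had a single antisense locus and 18 had 3 or more. The host was protein-coding at 548 loci (87.7%), a lincRNA at 33 and a gene of antisense type at 22. An exon of the host was touched at 243 loci, and the other 382 lay in host introns only. Median locus length was 117 bases.

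Host exons took a larger share of the antisense peaks in Mavs-/- than in editing-deficient liver, within the error of the libraries. The share was 40.2%, 50.0% and 53.6% in the Mavs-/- replicates and 35.6%, 39.1% and 41.6% in the editing-deficient ones, so the groups overlapped. The means were 47.9% ± 6.97 and 38.8% ± 2.99 (exact permutation p = 0.2, adjusted 0.35). With every peak that overlapped an RNase-only peak of its genotype removed whole, the direction reversed to 8.69 points higher in editing-deficient liver (exact permutation p = 0.1). Median length was 97, 87.5 and 90 bases in the Mavs-/- libraries and 130, 104 and 106 bases in the editing-deficient ones. These lengths did not overlap, with means of 91.5 ± 4.92 and 113 ± 14.5 bases, and gave the smallest p the design allows (exact permutation p = 0.1, adjusted 0.35). The difference of 21.8 bases fell to 13.5 without editing-deficient replicate 1 and to 9.17 with RNase-only overlaps removed (exact permutation p = 0.2), and rose to 35.8 when every list was cut to the same length and to 66 among peaks with an area of at least 1000.

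More than 1 in 2 antisense peaks lay on or near a transcript start of the host. Of the 1662 peaks, 285 (17.1%) overlapped an annotated start of a host transcript, 612 (36.8%) lay within 1 kb of one, and 520 (31.3%) lay more than 10 times as far away. In Mavs-/- MDA5-protected libraries the share overlapping or within 1 kb of a start was 49.3%, 67.6% and 67.0%. In editing-deficient libraries it was 44.2%, 47.5% and 51.8%, and the ranges of the genotypes overlapped. Peaks on host exons were within 1 kb of a start in 80.7% to 88.0% of cases per library, and those in host introns in 22.0% to 47.2%.

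**Figure D2:**
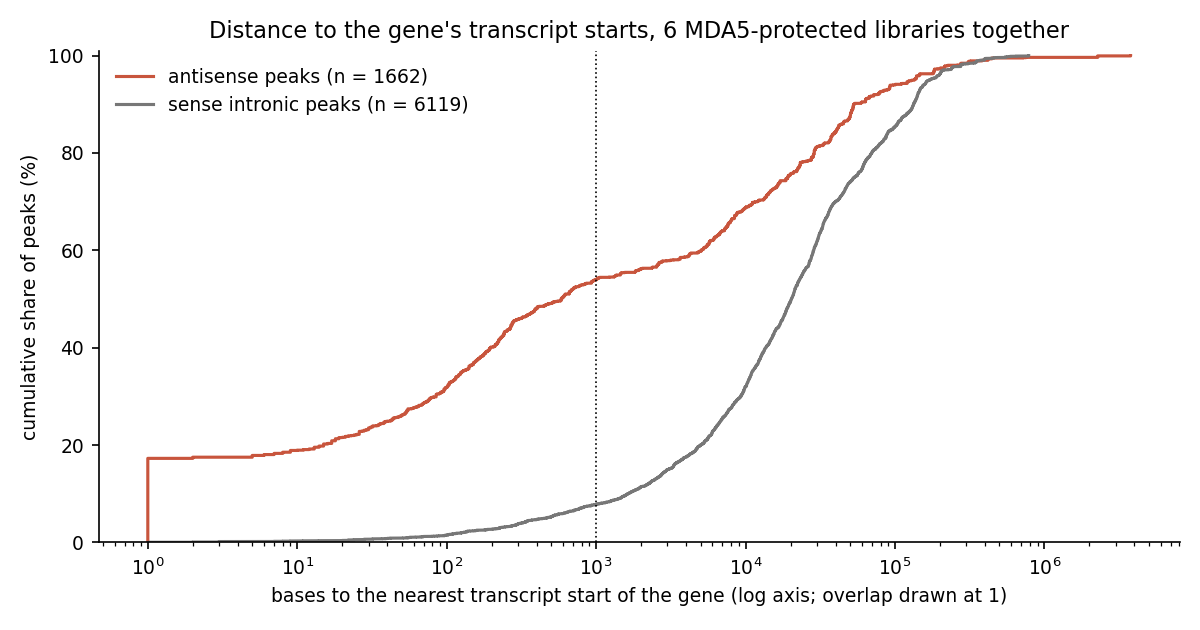
Cumulative share of peaks, in percent, by distance in bases to the nearest transcript start of the host (logarithmic axis), for antisense peaks and for sense intronic peaks of the 6 MDA5-protected libraries. Of antisense peaks 17.1% overlap a start, drawn at 1 base. At the dotted line at 1 kb the antisense curve lies above the sense intronic one, which cannot overlap a start because a start is an exon base.

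The nearness to starts differed between digests with and without MDA5. This measure was added after the data were seen. Over the 6 MDA5-protected libraries 54.6% ± 10.2 of antisense peaks were near a start, against 28.8% ± 17.1 of antisense peaks over the 6 RNase-only libraries, a difference of 25.8 points (exact permutation p = 0.0195, adjusted over 3 added comparisons 0.031). The RNase-only shares were 23.3%, 42.2% and 55.9% in Mavs-/- and 8.45%, 20.4% and 22.6% in editing-deficient liver. Within genotypes the means were 61.3% against 40.5% in Mavs-/- and 47.9% against 17.2% in editing-deficient liver. The ranges of the digests overlapped in Mavs-/- and did not in editing-deficient liver. RNase-only lists were longer, with 3150 to 6094 peaks against 1180 to 2868, and list length was not matched between the digests. Antisense peaks of the Input libraries were near a start in 63.9% to 69.5% of cases. Among antisense peaks in host introns of the MDA5-protected libraries, 31.6% ± 11.0 were near a start, against 9.48% ± 5.18 of sense intronic peaks in the same libraries, and the share was higher in 6 of 6 (sign-flip exact permutation p = 0.031, the smallest for 6 libraries, adjusted 0.031).

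Set beside sense intronic peaks of the same libraries, antisense peaks were shorter and met Input peaks and opposite-strand peaks more often, although none of these passed 0.05 after adjustment over 6 comparisons. Median length was 102 ± 15.4 bases for antisense and 242 ± 17.2 for sense intronic peaks, and shorter in 6 of 6 libraries (two-sided sign-flip exact permutation p = 0.031, adjusted 0.0625). An Input peak of the genotype on the same strand overlapped 13.0% ± 2.96 of antisense and 2.52% ± 1.60 of sense intronic peaks, higher in 6 of 6 (p = 0.031, adjusted 0.0625, same exact permutation test). Without the mitochondrial peaks that difference fell from 10.4 to 4.73 points (exact permutation p = 0.031).

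A peak of the same library on the other strand overlapped 18.7% ± 4.92 of antisense and 2.74% ± 1.54 of sense intronic peaks, again higher in 6 of 6 (exact permutation p = 0.031, adjusted 0.0625). Peaks that overlapped an RNase-only peak were left in that count, and with them removed the difference fell from 16.0 to 6.14 points. The antisense peaks counted included 13 to 20 mitochondrial ones per library, where no sense intronic peak was mitochondrial. They also included 42 peaks opposite Ifih1, all of which faced a host-strand peak. The 18.7% therefore does not describe antisense peaks elsewhere. An RNase-only peak overlapped 64.8% ± 5.18 of antisense and 61.9% ± 4.54 of sense intronic peaks, higher in 4 of 6 libraries (exact permutation p = 0.281). With a stricter overlap of at least 50% of the peak, this difference became 9.66 points (exact permutation p = 0.031). Median area percentile was 49.0 ± 1.43 against 51.2 ± 1.02 (exact permutation p = 0.0625), and 86.0% ± 3.87 against 83.5% ± 9.24 were met by a peak of another MDA5-protected library (exact permutation p = 0.562).

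**Figure D3:**
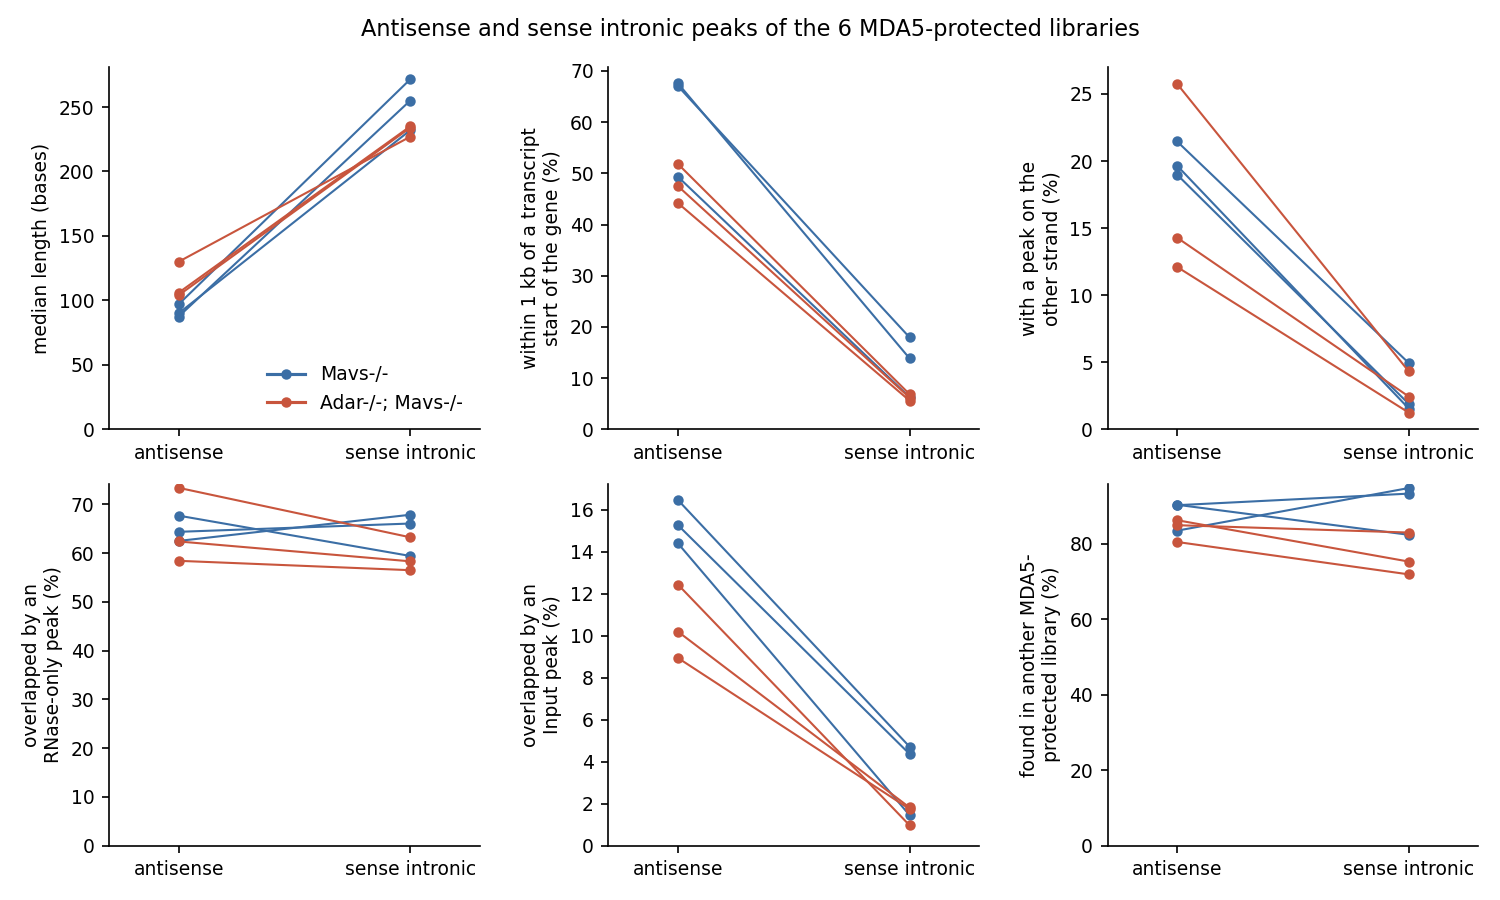
Values of antisense and sense intronic peaks in each of the 6 MDA5-protected libraries, joined by a line per library and coloured by genotype, with a panel for each measure and its unit on the vertical axis. Antisense peaks are shorter in 6 of 6 libraries and overlap Input peaks more often in 6 of 6, and the lines for overlap with RNase-only peaks cross.

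Between genotypes the overlap of antisense peaks with RNase-only peaks was close to equal, at 64.9% ± 2.63 in Mavs-/- and 64.7% ± 7.76 in editing-deficient liver (exact permutation p = 0.9). The sign of this difference changed with several settings. Antisense peaks on host exons overlapped Input peaks in 16.5% to 24.1% of cases per library, and those in host introns in 3.60% to 9.92%. Exon peaks had median area percentiles between 49.2 and 59.3, intron peaks between 42.0 and 51.2.

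Recurrence over libraries was read against all 4766 loci. Of the 625 antisense loci, 74 (11.8%) were found in all 6 MDA5-protected libraries, where 6.8% of all loci were. In 5, 4, 3 and 2 libraries there were 50, 43, 87 and 130 antisense loci, and 241 were found in 1. In 70 of the 74 every library had an antisense peak, and the other 4 were merged with peaks that also touched a gene on their own strand. An RNase-only peak on the same strand met 396 antisense loci (63.4%), and an Input peak met 55 (8.80%). No share over all loci stands beside these 2 counts, so they are not read as a trait of antisense loci. Neither was found at 214 (34.2%), where 38.9% of all loci had neither. Of the 74 loci, 53 lay within 1 kb of a host start, 43 touched a host exon, and 24 had an MDA5-protected peak on the host strand, 15 of them in all 6 libraries.

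The antisense locus with the highest mean area percentile was opposite Gm12896, a processed pseudogene, at chr4:122122998-122123094 on the minus strand. Its area percentile was between 99.96 and 99.98 in the 6 MDA5-protected libraries. Input peaks lay there in 6 libraries and RNase-only peaks in 3, and a processed pseudogene can share reads with near-identical copies, so its position is uncertain.

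Of the next strongest loci in all 6 libraries, 7 were mitochondrial and described together below, and the others were opposite Foxo1 and Mpped1. Foxo1 encodes a forkhead transcription factor of insulin signalling, and its antisense locus lay in an intron, at chr3:52269789-52269883 on the minus strand, 1453 bases from the nearest start. Its area percentile was 99.5, 99.3 and 99.2 in Mavs-/- and 99.3, 99.7 and 99.6 in editing-deficient MDA5-protected libraries. RNase-only libraries had it at 99.7 to 99.9 and Input libraries at 65.7 to 75.4, so it was present in all 18 libraries, with no peak on the host strand in any. Mpped1 encodes a metallophosphoesterase-domain protein, and its antisense locus at chr15:83780025-83780215 on the minus strand touched an exon 2 bases from a start. It stood at 97.7, 97.7 and 97.2 in Mavs-/- and 95.4, 96.5 and 97.4 in editing-deficient MDA5-protected libraries. RNase-only peaks there stood at 96.0, 97.0 and 93.1 in Mavs-/- and 26.1, 84.1 and 94.1 in editing-deficient liver, and no Input library had a peak on that strand. A peak on the host strand of Mpped1 was found in 6 of 6 MDA5-protected, 6 of 6 RNase-only and 6 of 6 Input libraries.

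The antisense loci found in 6 MDA5-protected libraries with no RNase-only and no Input peak on their strand stood lower in their lists. The 5 with the highest mean percentile were opposite Plekha6, which encodes a pleckstrin homology domain protein, Hmgn3, which encodes a nucleosome-binding protein, the ceramide synthase gene Cers4, Rassf1 and Usp53, of the ubiquitin-specific peptidase family. At Plekha6 the area percentile was 71.0, 72.3 and 71.2 in Mavs-/- and 81.2, 78.0 and 78.3 in editing-deficient libraries, and these did not overlap. At Hmgn3 it was 72.5, 70.0 and 67.0 against 78.1, 76.4 and 74.3, and at Cers4 68.6, 66.4 and 68.3 against 79.3, 77.7 and 73.0, so the editing-deficient libraries were the higher ones at these intronic loci too. Usp53 stood at 58.9, 63.2 and 71.6 against 70.8, 65.8 and 68.7, and Rassf1 at 78.4, 80.1 and 62.5 against 42.2, 61.9 and 84.0, with overlap between genotypes at both. No level was tested for single loci. These percentiles also move with the number of peaks in a list, which was between 1180 and 1829 in Mavs-/- and between 1636 and 2868 in editing-deficient liver. None of the 5 had an MDA5-protected peak on the host strand.

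**Figure D4:**
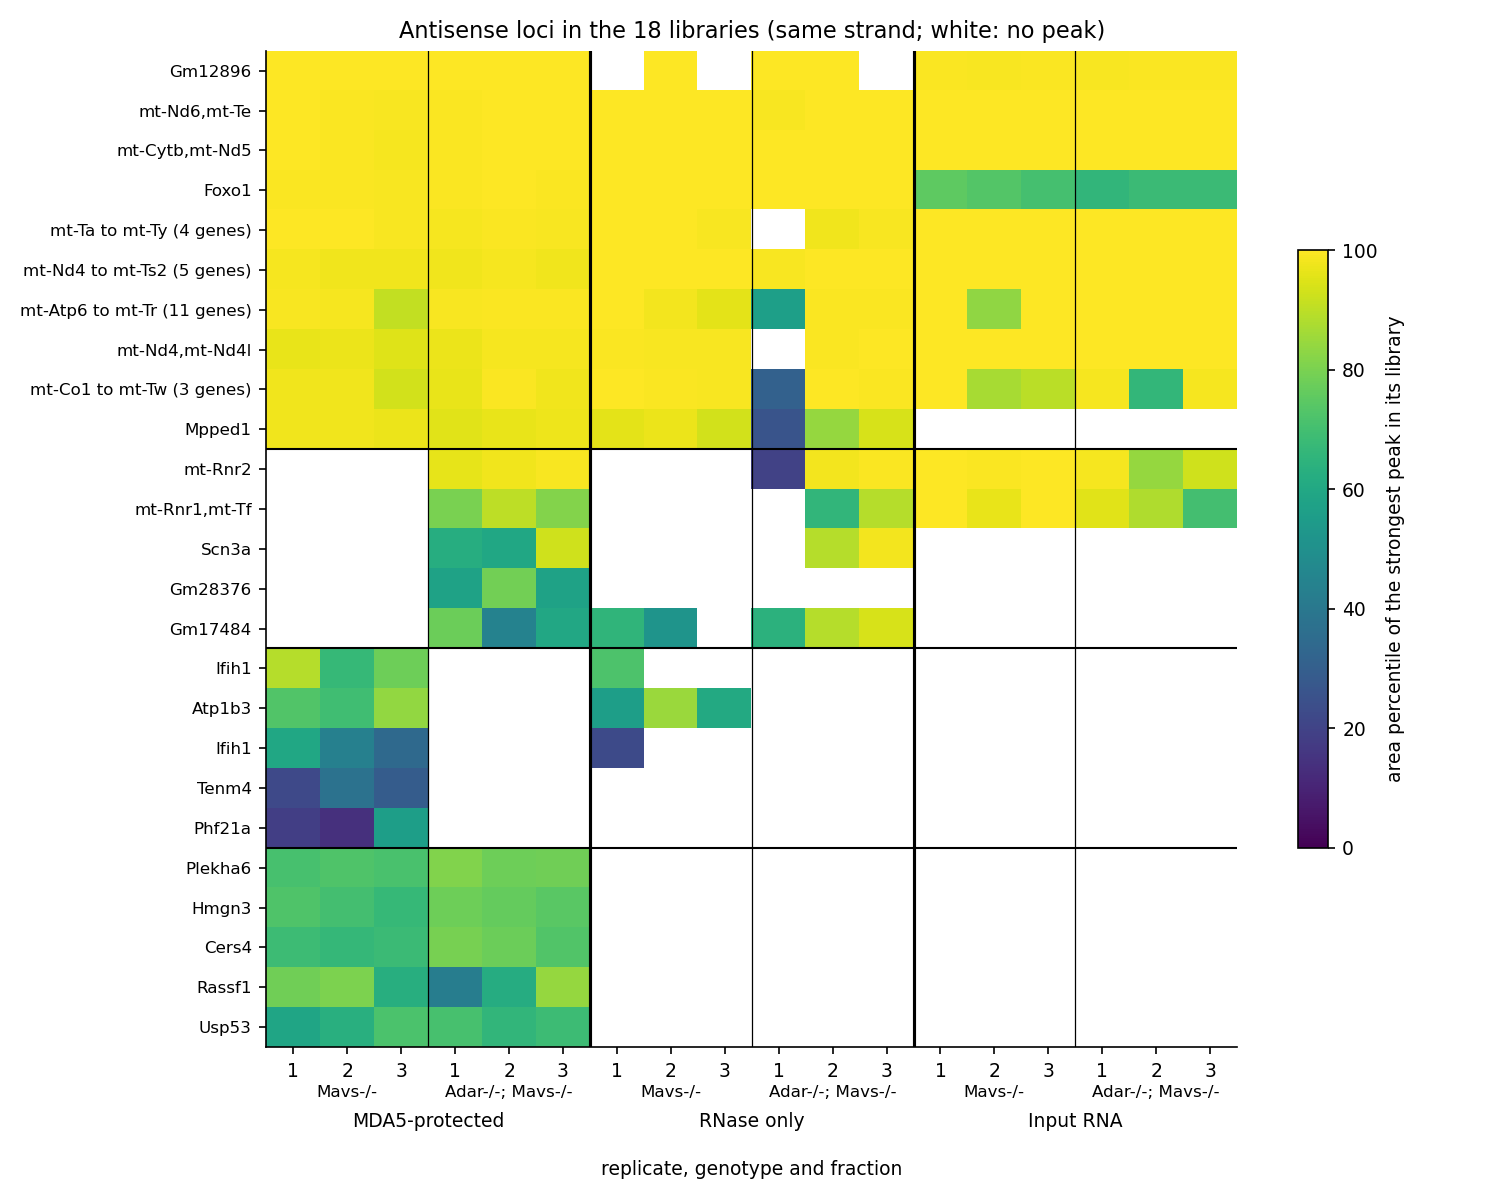
Area percentile of named antisense loci in each of the 18 libraries, with loci in rows, libraries in columns grouped by fraction and genotype, and empty cells where a library had no peak. Foxo1 is filled in all 18 libraries, and Plekha6, Hmgn3, Cers4, Rassf1 and Usp53 are filled in the 6 MDA5-protected libraries and in no RNase-only or Input library.

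Few antisense loci were split by genotype. Those in all 3 editing-deficient and no Mavs-/- MDA5-protected library numbered 16 of 625 (2.56%, where 2.96% of all loci were), and those in all 3 Mavs-/- and no editing-deficient library numbered 8 (1.28%, where 0.818% of all loci were). The strongest of the 16, at MT:1940-2546, lay opposite part of mt-Rnr2, the large mitochondrial ribosomal RNA, at percentiles of 96.3, 97.7 and 99.0. RNase-only peaks were found there in 3 editing-deficient and no Mavs-/- library, and Input peaks in 6 libraries. Elsewhere opposite mt-Rnr2, each Mavs-/- MDA5-protected library had 1 antisense peak, so the gene as a whole was not split by genotype. The next locus, at MT:2-535 opposite mt-Tf and part of mt-Rnr1, stood at 79.9, 90.0 and 81.4. Elsewhere opposite mt-Rnr1, Mavs-/- replicate 2 had 1 antisense MDA5-protected peak. In an intron of the sodium channel gene Scn3a the locus at chr2:65560789-65561656 stood at 62.2, 59.6 and 92.9, with RNase-only peaks in 2 editing-deficient libraries. A locus opposite the lincRNA Gm17484 stood at 77.7, 44.3 and 59.99, and RNase-only peaks were found there in both genotypes, in 5 libraries. Opposite Gm28376 a locus at chr1:16950739-16951010 stood at 57.5, 78.8 and 57.4, with no RNase-only or Input peak.

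Of the 8 loci found only in Mavs-/- MDA5-protected libraries, 2 lay opposite Ifih1 and are described below. The locus opposite Atp1b3, a beta subunit of the sodium pump, touched an exon and stood at 72.7, 69.5 and 83.7, with RNase-only peaks in the 3 Mavs-/- libraries at 56.1, 84.9 and 60.7. A peak on the host strand was found there in 6 MDA5-protected and 6 RNase-only libraries. Intronic loci opposite the teneurin gene Tenm4 (22.0, 37.8 and 29.1) and opposite Phf21a (18.6, 13.8 and 55.9), part of a histone demethylase complex, had no RNase-only or Input peak in any library. Apart from Phf21a in replicate 3, both sat in the lower part of their lists.

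Mitochondrial DNA held few of the antisense peaks but many of the strongest. A library had 13, 15 and 19 mitochondrial antisense peaks in Mavs-/- and 16, 20 and 18 in editing-deficient MDA5-protected RNA, against 15, 15, 17, 9, 24 and 17 in RNase-only and 3, 7, 9, 2, 12 and 7 in Input RNA, in the same order of genotypes. Antisense loci lay opposite 33 of the 37 mitochondrial genes. The 15 mitochondrial loci had a median length of 1020 bases, each met RNase-only and Input peaks, and 9 were found in all 6 MDA5-protected libraries. Of the mitochondrial antisense peaks between 12 and 19 per MDA5-protected library lay on the minus strand, opposite the genes of the plus strand, and 1 or 2 on the plus strand.

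Opposite mt-Nd6, the subunit of complex I whose gene lies on the other mitochondrial strand from the other protein genes, the locus stood at 99.8, 99.5 and 99.1 in Mavs-/- and 99.6, 99.8 and 99.8 in editing-deficient MDA5-protected libraries. Its 10 peaks included 4 antisense ones, since the others also touched mt-Nd5 on their own strand. The locus opposite mt-Nd5 and mt-Cytb stood at 98.8 to 99.8, and 3 of its 11 peaks were antisense. At both loci the percentile is that of the strongest peak of the merged locus. With so few antisense peaks, it cannot be that of an antisense peak in every library. Opposite the tRNA genes mt-Ta, mt-Tn, mt-Tc and mt-Ty, a cluster that holds the origin of light-strand replication, the locus at MT:5060-5320 stood at 99.6, 99.6 and 98.9 in Mavs-/- and 98.6, 99.5 and 99.0 in editing-deficient MDA5-protected libraries. It was present in 6 Input libraries and in 5 RNase-only libraries. A locus over mt-Nd4 and mt-Nd5 stood at 97.8 to 98.8, one over mt-Nd4l and mt-Nd4 at 95.1 to 98.8, one over mt-Co1 and mt-Nd2 at 93.1 to 99.2, and the one reaching from mt-Co1 to mt-Nd4l at 90.7 to 99.5. Of the 5 longest antisense peaks 4 were mitochondrial, with 1727, 1208, 1183 and 1149 bases, all from Mavs-/- replicates 1 and 2. The other, of 1145 bases, lay in an intron of Gpr108, which encodes a protein related to G protein-coupled receptors, in editing-deficient replicate 3.

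The hosts with the most antisense loci also had RNase-only peaks of that polarity. At Ifih1, described below, these were found in Mavs-/- replicate 1 alone. A830018L16Rik had 18 antisense loci, with 5, 4 and 3 peaks in Mavs-/- and 4, 12 and 14 in editing-deficient MDA5-protected libraries. RNase-only libraries had 19, 16 and 9 antisense peaks there in Mavs-/- and 0, 21 and 22 in editing-deficient liver, and Input had 0 in all 6. Gm28376, a gene of antisense type, had 10 loci, with 5, 2 and 3 against 2, 5 and 10 peaks, and RNase-only counts of 9, 6 and 7 against 0, 11 and 15. The lincRNA AC132320.1 had 9 loci, with 10, 0 and 1 against 5, 12 and 11 peaks, and RNase-only counts of 12, 5 and 3 against 0, 13 and 10. St18, which encodes a zinc finger transcription factor, had 8 loci, with 5, 4 and 4 against 2, 4 and 5 peaks, and RNase-only counts of 6, 4 and 3 against 0, 6 and 7. Editing-deficient RNase-only replicate 1 had no antisense peak at any of these 4 hosts, while the other 5 RNase-only libraries had some at each. It also had the lowest share of antisense peaks on host exons of all 18 libraries, 9.12%.

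Ifih1 itself had 10 antisense loci, and its peaks followed its exons. Antisense peaks there numbered 10, 8 and 7 in Mavs-/- and 5, 6 and 6 in editing-deficient MDA5-protected libraries, and host-strand peaks numbered 13, 14 and 13 and 14, 13 and 14. All 42 antisense peaks faced a host-strand peak of their own library. Their median length was 202 bases, the median share of a peak's bases inside annotated exons was 97.0%, and the lowest was 89.1%. Antisense area percentiles lay between 5.81 and 90.2. Input RNA had no Ifih1 peak on either strand in any of the 6 libraries.

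Of the 16 coding exons of Ifih1, 10 had an antisense MDA5-protected peak, and exons 5, 6, 7 and 14 had one in all 6 libraries. On the host strand 13 exons had a peak in all 6. Exons 1 and 2, codons 1 to 208, which hold the coding sequence of the CARD part, had no MDA5-protected peak on either strand. The first codon covered on the host strand was between 216 and 258 by library, and on the antisense strand between 293 and 334. Exons 15 and 16 had antisense peaks in the 3 Mavs-/- libraries only. In RNase-only RNA antisense peaks were found in Mavs-/- replicate 1 alone, where 16 peaks on each strand reached from codon 1 to codon 1025, with gaps on the host strand, while the other 5 libraries had 0 antisense and between 0 and 5 host-strand peaks. The protein added to the MDA5-protected samples was made from a coding sequence of this gene without the CARD part, and its part in these peaks was not tested. Without the Ifih1 peaks each comparison kept its side of the threshold, and the overlap with RNase-only peaks reversed between genotypes to 2.40 points higher in editing-deficient liver.

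**Figure D5:**
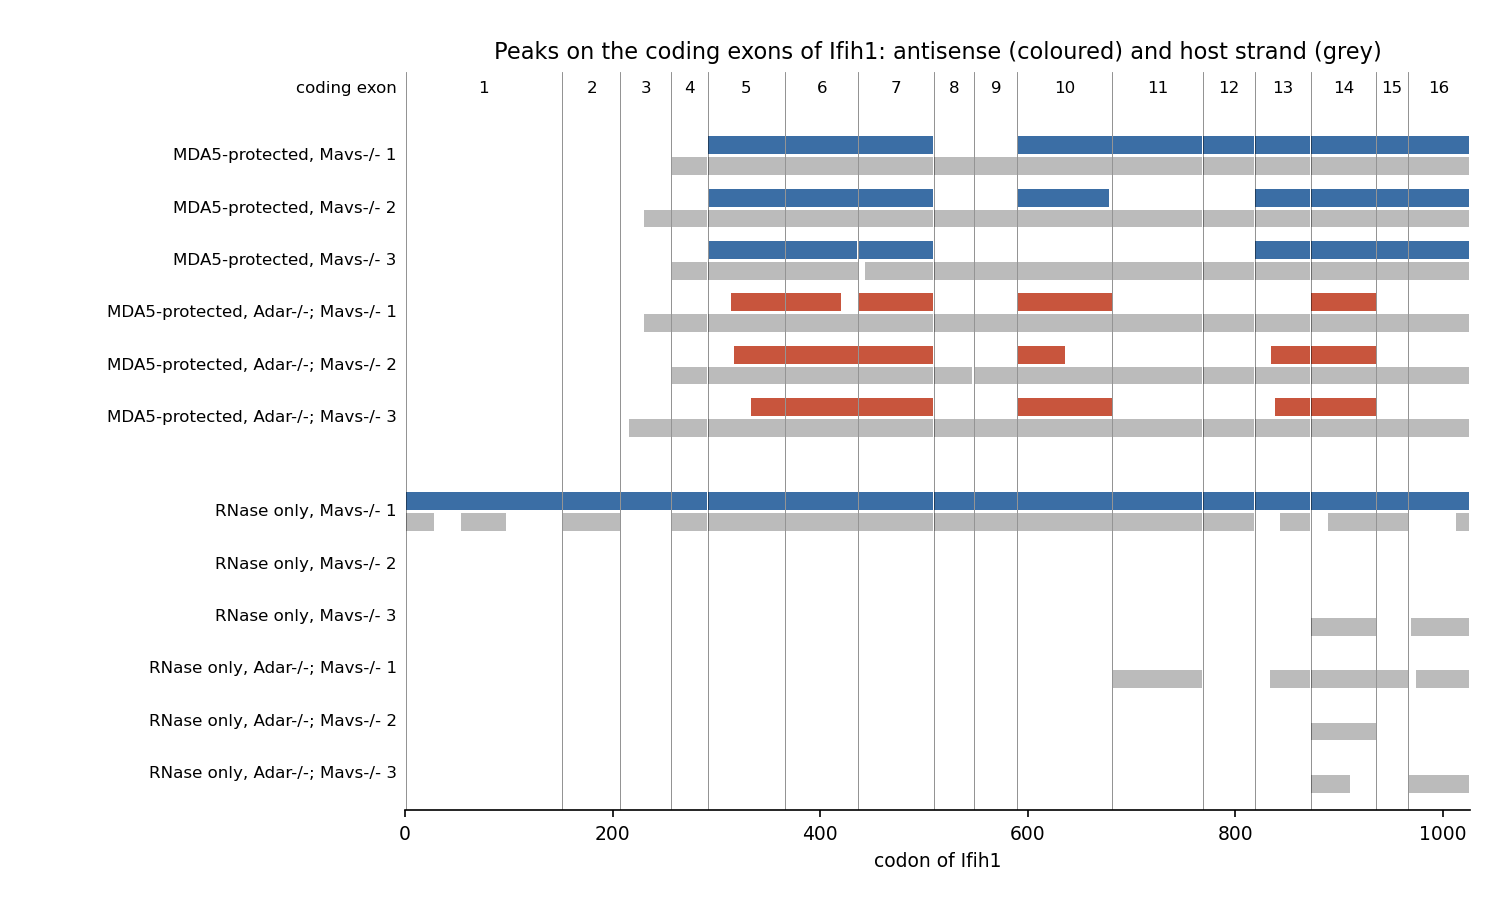
Codons of Ifih1 covered by peaks on the antisense and host strands, for the MDA5-protected and RNase-only libraries, with the 16 coding exons marked along the axis, antisense bars in colour and host-strand bars in grey. MDA5-protected peaks begin at codon 216 or later on the host strand and 293 or later on the antisense strand, and Mavs-/- RNase-only replicate 1 has peaks from codon 1 on both.

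The lists of secreted hepatocyte proteins and of cytochrome P450 genes held no hosts. None of 35 genes for secreted hepatocyte proteins, such as Alb for albumin and Apoa1 for an apolipoprotein, had an antisense locus, although all 35 had Input peaks on their own strand and 3 had MDA5-protected peaks there. None of 100 cytochrome P450 genes did either, where 45 had Input peaks and 22 MDA5-protected peaks on the host strand. From the list of 25 genes of double-stranded RNA sensing and interferon response, the antisense loci of Ifih1 are those described above. None of 8 imprinted genes or transcripts with known antisense transcription had one. Since 625 of the 4766 loci were antisense and most genes had none, no statement about depletion follows from these counts.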

How the data were processed

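The 18 peak lists, 1 per library, were made by the authors, who used Trim Galore 0.6.6 for trimming, NextGenMap for alignment against GRCm38 and Genrich 0.6.1 for calling peaks on each strand, with Input of the same genotype as control for digested libraries. As deposited by the authors, the signal of a peak is its area under the significance curve (smallest 500.008), the p and q columns are −log10 values (smallest −log10 q 3.12), and the score is a whole-number display value. Blacklisted regions and rRNA were excluded.

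Libraries were grouped by genotype and fraction, and none was left out. A gene was overlapped from 1 base, and annotation was GENCODE M21. Libraries, not peaks, were the replicates, and two-sided exact permutation or sign-flip tests were used, with Benjamini-Hochberg adjustment within families of 7 genotype, 2 fraction, 6 within-library and 3 later comparisons. Depth is unknown. Clopper-Pearson intervals (95%) cover counting error only. Peak classification was tested on simulated data, where 1200 of 1200 peaks were given their planted class.

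Replicate numbers were checked over loci. MDA5-protected and RNase-only libraries of the same number deviated together (correlations 0.165 to 0.348 in 6 pairs, against -0.265 to 0.00271 for unlike numbers). MDA5-protected and Input libraries of the same number did not (-0.122 to -0.0174 in 6 pairs, against -0.0431 to 0.0983 for unlike numbers). The numbers were therefore tried as a pairing of the digested fractions, which the labels do not state. Why these deviated together was not tested. With the pairing the share of antisense peaks differed with exact permutation p = 0.375 and the share near starts with p = 0.031.

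Loci were named by rule: up to 10 in all 6 libraries, up to 5 per genotype found in that genotype only, the 5 longest peaks, the 5 hosts with most loci, the 5 host-exon loci and the 5 without RNase-only or Input peaks in the most libraries, by mean area percentile, and hosts in 5 gene lists, of which 1 result is not reported here. The members and lists were chosen with earlier results of these data known. Alternatives were overlaps of at least 50% of the peak, protein-coding hosts, no own-strand gene within 5 kb, an area of at least 1000, equal numbers of peaks, removal of RNase-only overlaps, loci merged within 200 bp, left-out libraries and the replicate block. Those without Ifih1, without mitochondrial peaks and without single RNase-only libraries in the overlap with MDA5-protected peaks were added after seeing the data. Python 3.11.15, numpy 2.4.6, scipy 1.17.1 and matplotlib 3.10.9 were used.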

Additional observations from a re-analysis of the deposited data

How the results depend on the processing

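Genotype comparisons had no call to lose, and reversals of direction there were as follows. The difference in antisense share of RNase-only peaks, editing-deficient minus Mavs-/-, was -1.15 points and became 0.351 with an area of at least 1000, and between -4.07 and 3.66 with single libraries left out. The difference in number of antisense peaks became -54.7 with equal numbers of peaks per library, and the host-exon difference 8.69 points with RNase-only overlaps removed. The difference in overlap with RNase-only peaks became 6.97 with equal numbers, 2.40 without Ifih1, 0.226 without mitochondrial peaks, and between -7.38 and 7.66 with single libraries left out. It reversed without Mavs-/- MDA5-protected replicate 1, without editing-deficient MDA5-protected replicate 2 or 3, and without any of the 3 Mavs-/- RNase-only libraries. Against sense intronic peaks, the area percentile difference, -2.14, became 1.55 (exact permutation p = 0.031) with an area of at least 1000, -5.93 with no own-strand gene within 5 kb, -4.48 with RNase-only overlaps removed and -5.01 without mitochondrial peaks. The difference in overlap with RNase-only peaks became 9.66 points with an overlap of at least 50% of the peak. The causes were not tested. With 1 of 6 libraries left out, the smallest p is 0.0625, and the differences lay between -148.6 and -133.1 bases in length, 9.94 and 11.1 points in Input overlap, 14.9 and 17.0 in opposite-strand peaks, 43.4 and 46.4 in nearness to starts of all antisense peaks and 19.8 and 23.4 of those in host introns. Loci found only in editing-deficient libraries numbered 10 with protein-coding hosts (16 otherwise), and only in Mavs-/- libraries 4 with no own-strand gene within 5 kb (8 otherwise). With the replicate number as a block, genotype p-values were between 0.25 and 1 (the smallest is 0.25), and same-numbered libraries of the genotypes correlated at 0.0226 to 0.0574, so they share only a number. The block changed no call. Repeat content, base composition against sense intronic peaks and inverted copies need a genome and were not run. No read counts were used, so weak peaks near the calling limit cannot be told apart from absent ones.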

Other observations

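A few antisense loci chosen after their values were seen add to the named ones. At loci chosen this way a lack of overlap between genotypes is no test, and percentiles also move with the number of peaks in a list. The locus in an intron of Smarca2, an ATPase of the SWI/SNF chromatin remodelling complex, stood at area percentiles of 92.5, 92.7 and 93.8 in Mavs-/- and 96.1, 95.3 and 94.5 in editing-deficient MDA5-protected libraries, with no overlap, and had RNase-only peaks in 6 libraries and no Input peak. Opposite Ptprm, a receptor tyrosine phosphatase gene, an intronic locus with peaks on the host strand in 6 libraries stood at 98.7, 96.3 and 92.3 in Mavs-/- and 86.8, 85.9 and 80.4 in editing-deficient libraries, again with no overlap. Opposite Prdm16, a transcription factor gene of brown fat, an intronic locus 587 bases from a start had peaks on both strands in 6 MDA5-protected and 6 RNase-only libraries. Opposite Erf, an ETS-family repressor gene, a locus on a start was found in 6 MDA5-protected and 6 Input libraries and in no RNase-only library, and 1 of its 6 MDA5-protected peaks was antisense by the rule. Opposite Eps15, an endocytic adaptor gene, a locus on a start faced a host-strand MDA5-protected peak in 6 libraries and stood between percentiles 6.59 and 91.7.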
